A study of Mus musculus with 72 samples.

Results

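The 10 apolipoprotein genes Apoa1, Apoa2, Apoa4, Apoa5, Apob, Apoc1, Apoc2, Apoc3, Apoe and Apom were followed through all 7 deposited count tables. They were chosen by symbol, and all 10 were found in every table, among 24107 symbols that the tables shared and 37108 symbols in all. The study asked whether conception by in vitro fertilization (IVF) changes male mice and the offspring they sire, and measured mRNA in 72 libraries of single tissues. F1 animals came from CF-1 females and SJL/B6 males that carried 1 copy of a GFP transgene. F1 IVF embryos came from superovulated females, were cultured in KSOM medium at reduced oxygen to the blastocyst stage, and were placed without surgery into pseudopregnant CF-1 recipients, whereas naturally conceived F1 animals (naturals) came from mated females, with no culture or transfer. Superovulation, culture and transfer were therefore all part of the IVF group and cannot be told apart. For the adult F1 cohorts, pups of both groups were delivered by C-section and fostered with wild-type dams. IVF pups were delivered at a later stage than naturals, a difference that cannot be told apart from the others in adult F1 males. F1 testes were taken from fetuses at E18.5, counted in embryonic days (4 naturals and 6 IVF), at 12 weeks (5 and 5) and at 39 weeks (4 and 6). F2 animals were conceived by mating males of either F1 group at 12 weeks with wild-type CF-1 females, so that no F2 animal was itself conceived in vitro. At 12 weeks the F2 tissues were male liver (5 from natural sires and 5 from IVF sires), female liver (5 and 6), testis (5 and 7) and ovary (4 and 5). Below, natural and IVF name the F1 sire's conception for F2 tissues. Liver was sampled as a part of the organ, gonads as 1 organ or a piece of it, and the study's methods name seminiferous tubules as the part of the adult F1 testis that was frozen. The same methods also name a cross section of the testis as the source of RNA.

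Apolipoproteins are the proteins on the surface of lipoproteins, the particles that carry triglyceride and cholesterol through blood. Hepatocytes secrete most of them, enterocytes some, and Apoe is also made by macrophages, glia and steroid-producing cells. Apob is the scaffold of very-low-density lipoprotein, the A-type and M-type members ride mainly on high-density lipoprotein (HDL), and the C-type members and Apoa5 set how fast lipoprotein lipase empties the particles.

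On GRCm38, the build of the deposited tables (mm10), 4 of the genes form a cluster on chromosome 9: Apoa1 (chr9:46228580-46230466, plus strand), Apoc3 (chr9:46232933-46235636, minus strand), Apoa4 (chr9:46240696-46243459, plus) and Apoa5 (chr9:46268633-46271919, plus). A cluster on chromosome 7 holds Apoc2 (chr7:19671579-19677941), Apoc1 (chr7:19689481-19692660) and Apoe (chr7:19696109-19699188), all on the minus strand. Apoa2 (chr1:171225054-171226379, plus), Apob (chr12:7977648-8016835, plus) and Apom (chr17:35128997-35132050, minus) stand alone. Apob has 13934 exon bases of 43.5% GC, whereas the other 9 genes have 537 to 2522 exon bases of 51.9% to 59.5% GC. Of Apoc2's exon bases, 79.5% are shared with a readthrough gene on the same strand, Gm44805, which is listed at 0 in all 72 libraries, so Apoc2 counts are uncertain throughout. Apoa4 exons are overlapped from the opposite strand by Gm47528 over 34.9% of their bases and Apoa5 exons by Gm47544 over 20.8%, and the strand setting of the counting is not given in the sources used here.

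The start regions of 4 members are printed because their genes carry the contrasts described below: Apoa1, which did not pass in either sex of liver and was present in ovary; Apoa4, high in ovary; Apob, which moved against most other members in liver; and Apoe, the most abundant member in every gonad. Each is a RefSeq promoter window of 250 bases on GRCm38.p6, written 5′ to 3′ on the gene's strand. The Apob window ends inside the gene, whose first base is 7977629 in RefSeq and 7977648 in the gene model given above. The Apoa1 and Apoa4 windows end just before the RefSeq starts, 46228630 and 46240844, but partly inside the gene models given above. The Apoe window ends just before the gene model and inside the RefSeq gene, which reaches to 19701310. The 4 windows are chr9:46228380-46228629 for Apoa1, chr9:46240594-46240843 for Apoa4, chr12:7977427-7977676 for Apob and chr7:19699189-19699438 for Apoe. Capitals mark matches, on either strand, to the motifs TATAAA (a core promoter element), TGTTTGC (bound by forkhead factors) and CAAAGTTCA or CAAAGTCCA (bound by HNF4).
Apoa1: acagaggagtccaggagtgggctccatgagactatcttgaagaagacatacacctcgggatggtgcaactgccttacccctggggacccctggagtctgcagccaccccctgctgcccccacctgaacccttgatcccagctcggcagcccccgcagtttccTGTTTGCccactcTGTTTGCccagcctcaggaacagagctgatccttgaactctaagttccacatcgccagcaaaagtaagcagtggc
Apoa4: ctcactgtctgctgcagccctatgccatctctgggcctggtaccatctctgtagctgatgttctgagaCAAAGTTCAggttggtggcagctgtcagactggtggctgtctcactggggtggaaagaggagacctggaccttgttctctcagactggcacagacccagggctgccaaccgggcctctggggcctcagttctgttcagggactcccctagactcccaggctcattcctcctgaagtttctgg
Apob: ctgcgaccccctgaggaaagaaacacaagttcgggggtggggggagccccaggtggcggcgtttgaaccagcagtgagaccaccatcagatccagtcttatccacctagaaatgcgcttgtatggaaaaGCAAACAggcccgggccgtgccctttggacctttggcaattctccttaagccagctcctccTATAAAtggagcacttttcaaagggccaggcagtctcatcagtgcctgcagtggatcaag
Apoe: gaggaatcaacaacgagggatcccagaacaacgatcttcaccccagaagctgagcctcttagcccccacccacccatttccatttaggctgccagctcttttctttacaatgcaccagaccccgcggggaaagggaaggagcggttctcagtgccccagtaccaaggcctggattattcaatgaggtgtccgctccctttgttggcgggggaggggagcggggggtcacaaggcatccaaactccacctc
Counted in bases back from the end of each window, Apoa1 held TGTTTGC at 88 to 82 and again at 75 to 69. Apoa4 held CAAAGTTCA at 182 to 174, and Apob held TATAAA at 60 to 55 and, as the reverse complement GCAAACA, the forkhead motif at 121 to 115. This Apoe window held no match, whereas 1 of the 3 RefSeq windows of Apoe did. Of 32851 promoter windows of this length, 12.4% hold TATAAA, 4.3% TGTTTGC, 0.335% CAAAGTTCA and 0.384% CAAAGTCCA. RefSeq windows were at hand for 8 of the 10 members.

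Libraries held 543745 to 90441392 counts, and in the livers base composition, and in males also depth, moved with the groups. Male livers had 10391074 to 44069283 counts in naturals and 543745 to 12624673 in IVF, and female livers 3947645 to 34149676 in naturals and 13815244 to 90441392 in IVF. The ranges overlapped in both sexes. The mean log2 total differed by -2.1 in males (p = 0.0238 by exact permutation, adjusted 0.037). In females it differed by 1.66 and did not pass (p = 0.0563 by exact permutation, adjusted 0.0716). The trend of log2 counts with gene GC content, as a slope per 10 GC percentage points, was 0.39 to 0.51 in natural and -0.80 to -0.13 in IVF male livers, but -0.67 to -0.28 in natural and 0.15 to 0.57 in IVF female livers. The differences in slope were -0.80 in males (p = 0.00794 by exact permutation, two-sided, and 0.0222 after adjustment over 14 tests of depth and slope) and 0.96 in females (p = 0.00433 by exact permutation, adjusted 0.0222). No natural and IVF library of the same sex had slopes on the same side of 0, so conception and this trend cannot be told apart, and the liver comparisons were also fitted with a smooth GC trend removed from every library. Livers held the hepatocyte markers: the 18 markers summed to 95900 to 269000 counts scaled to a library size of 1e6 (CPM), and all 18 had counts in every liver group. In IVF male livers 5 of the 18 passed as higher and 1 as lower, and in IVF female livers 2 as higher and 6 as lower. Of 9 macrophage markers 4 were higher and 1 lower in IVF male livers, and 2 were higher and 1 lower in IVF female livers. Of all genes, 31.1% passed in males and 39.4% in females. Summed by library totals, the macrophage markers had a median of 184 CPM in natural and 142 in IVF male livers, against their calls. In females these medians were 114 in natural and 243 in IVF livers. The part of these markers in the results below was not tested. In such bulk tissue, fewer cells of a type and less RNA per cell cannot be told apart.

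Together the 10 members made up 6.27% to 6.87% of all counts in natural male livers and 2.57% to 6.15% in IVF male livers. In females the order was the opposite, with 3.51% to 4.97% in naturals and 6.05% to 7.30% in IVF. The groups of each sex did not overlap in this share, which is of raw counts with the GC trend left in. Of single genes tested, 27% in males and 29.4% in females had separate ranges. With the GC trend removed, the median log2 fold change of the members was 0.007 in males and -0.078 in females. Per kilobase of exon (RPKM from normalised counts; mean ± SD, n = 5), natural male livers held most Apoa2, the second protein of HDL, at 13510 ± 1028, then Apoe at 11680 ± 1152 and Apoa1 at 10720 ± 923. Below them stood Apoc1 at 3976 ± 457, Apoc3 at 1131 ± 135, Apoa5 at 494 ± 47.5, Apob at 359 ± 41.0, Apom at 289 ± 19.3, Apoa4 at 67.8 ± 9.14 and Apoc2 at 3.32 ± 0.81. The ranges over libraries overlapped for Apoa2 and Apoe, Apoe and Apoa1, and Apob and Apom, and for no other neighbours in that order. With the longest transcript as length in place of all exons, Apoe came before Apoa2. In IVF female livers Apoe came first at 13690 ± 2416 (n = 6) before Apoa2 at 13280 ± 1187, and their ranges overlapped.

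**Figure D1:**
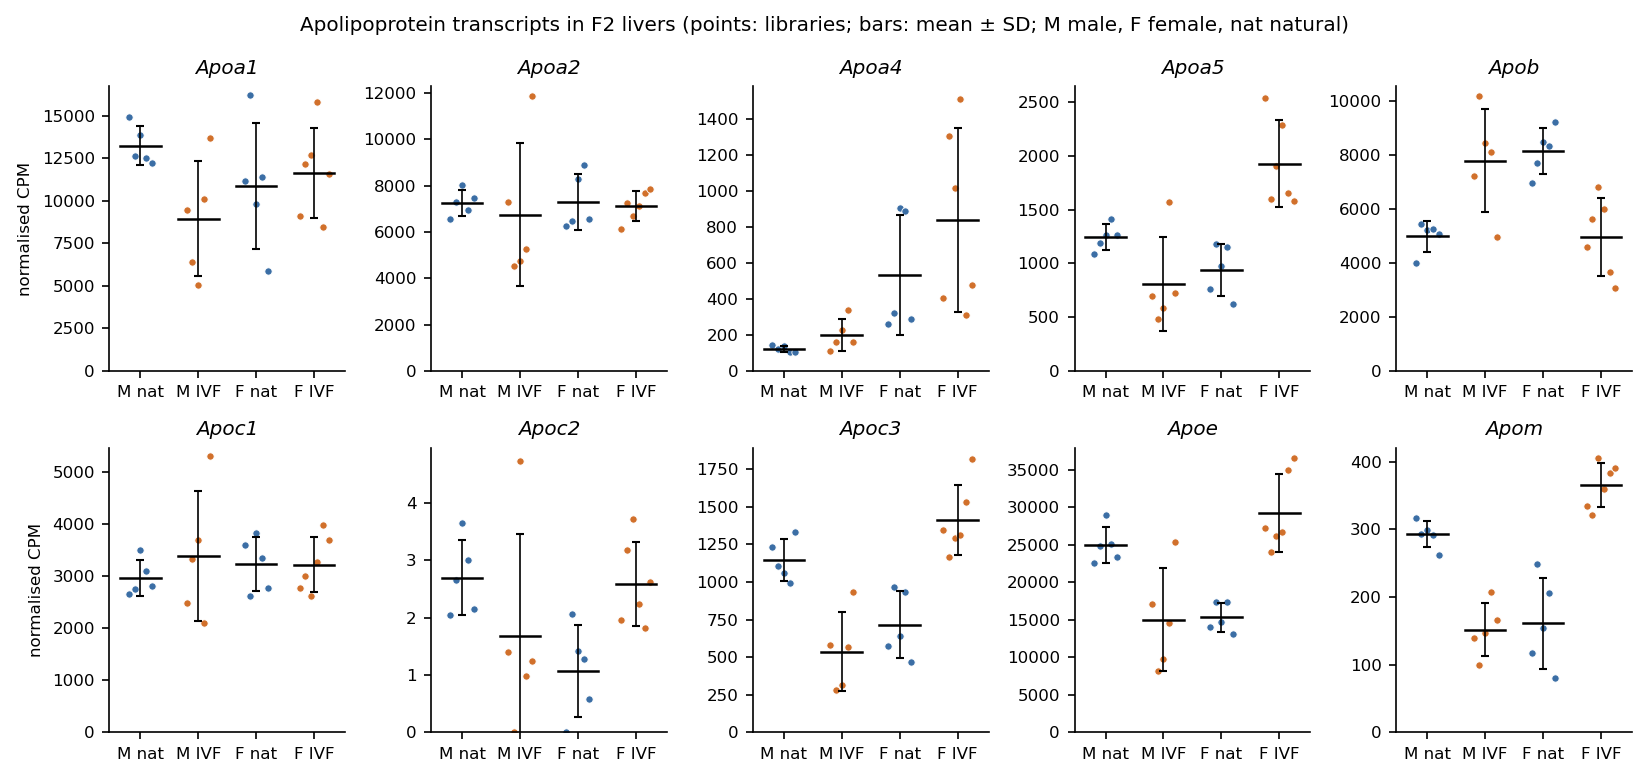
Normalised CPM of each of the 10 genes in the 21 F2 livers (vertical axis, linear, starting at 0) by sex and conception (horizontal axis). Points are libraries, blue for natural and orange for IVF, and bars are the mean ± SD of 5 or 6 libraries. Apoc3 and Apom separate natural from IVF livers in both sexes, downward in males and upward in females, while Apob lies higher in IVF males, apart from 1 library, and lower in IVF females.

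In F2 male livers, Apom, Apoc3 and Apoe were lower and Apob and Apoa4 higher with an IVF sire, by 1.57-fold to 2.12-fold. These 5 of 10 members passed (edgeR, quasi-likelihood F test, at a Benjamini-Hochberg adjusted p under 0.05 and over 1.5-fold), when 31.1% of 11973 genes did (13.9% higher, 17.2% lower). The median log2 fold change of the members was -0.59, against -0.01 over all genes.

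Apom, the HDL protein that carries sphingosine 1-phosphate, was at 317, 293, 299, 292 and 263 normalised CPM in natural male livers. In IVF males it was at 139, 99.8, 146, 207 and 167. Every IVF liver lay below every natural liver, and the log2 fold change was -0.94 ± 0.18 (SE; adjusted p = 0.00113). Apoc3, an inhibitor of lipoprotein lipase and of remnant uptake, was at 1232, 1108, 1062, 995 and 1336 in naturals. Its IVF values were 582, 282, 316, 567 and 935. These groups did not overlap either (-1.09 ± 0.27, adjusted p = 0.00545). Apom and Apoc3 were the 2 members with separate ranges, as were 27% of all genes tested.

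Apoe, the ligand that takes remnant particles to receptors on the cell surface, was at 22600, 24860, 28950, 25150 and 23320 in natural male livers. In IVF males it was at 17130, 8136, 9835, 14610 and 25440. In 4 IVF livers it lay below all naturals and in IVF replicate 5 among them, with a log2 fold change of -0.73 ± 0.25 (adjusted p = 0.033). Apob was at 4001, 5439, 5224, 5248 and 5065 in naturals. With an IVF sire it was at 7206, 10200, 8428, 8102 and 4975. Here 4 IVF livers exceeded all naturals and IVF replicate 5 did not (0.65 ± 0.19, adjusted p = 0.0165). Apoa4, a lipid-carrying protein of chylomicrons and HDL, was at 144, 121, 136, 108 and 107 in naturals. It stood at 110, 162, 227, 341 and 160 in IVF males, 4 of them above all naturals (0.70 ± 0.25, adjusted p = 0.0364).

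The other 5 members did not pass in males. Apoa1, the main HDL protein, was at 14960, 12640, 13890, 12530 and 12250 in naturals. In IVF males it was at 9477, 6402, 5035, 10120 and 13700, so that 4 of 5 lay below all naturals (-0.56 ± 0.23, adjusted p = 0.0644). Apoa5, which helps lipoprotein lipase, was at 1092, 1187, 1266, 1417 and 1268 in naturals. The IVF values were 695, 482, 583, 1574 and 727, with replicate 4 above every natural and the rest below (-0.61 ± 0.26, adjusted p = 0.0798). Apoc2, the activator of that lipase, had only 2.04, 2.66, 3.65, 3.00 and 2.15 CPM in naturals. It had 1.40, 0, 4.72, 0.99 and 1.25 in IVF males, on both sides of the naturals (-1.17 ± 0.45, adjusted p = 0.0565). Apoa2 was at 6552, 7299, 8023, 6950 and 7451 in naturals and at 7312, 4529, 4758, 5259 and 11890 in IVF males (-0.10 ± 0.24, adjusted p = 0.779). Apoc1, which slows lipoprotein uptake by receptors, was at 2649, 2759, 3490, 3095 and 2798 in naturals and at 2477, 3330, 3696, 2094 and 5302 in IVF males (0.20 ± 0.22, adjusted p = 0.522). The IVF ranges of these last 2 genes enclosed the natural ranges. Beside them, Alb, the hepatocyte's albumin gene, rose from 53400 ± 10970 to 80700 ± 19230 CPM (mean ± SD, n = 5 each; 0.60 ± 0.20, adjusted p = 0.0255).

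With the GC trend removed, 1 of 10 members passed in males, Apoa4 at 1.40 ± 0.24 (adjusted p = 0.00128), against 17.8% of all genes. Apom was at -0.57 ± 0.15, within the fold limit (adjusted p = 0.0113), Apoc3 at -0.59 ± 0.21 (adjusted p = 0.0566), Apob at 0.10 ± 0.16 and Apoe at 0.07 ± 0.20. Apoc1 was at 0.64 ± 0.22 (adjusted p = 0.0514) and Apoc2 at -0.66 ± 0.45, and Apoa1, Apoa2 and Apoa5 were at 0.04, -0.02 and -0.08. Alb was at 0.33 ± 0.19 and no longer passed. The count of 5 also fell to 3 when natural replicate 2, 3, 4 or 5 was left out (Apoa4 and Apoe lost), when IVF replicate 2 was left out (Apob and Apoe lost), and without IVF replicates 2 and 3, the 2 libraries of lowest total (Apoc2, Apoc3 and Apom then passing). Single calls were also lost without natural replicate 1 (Apob), IVF replicate 3 (Apoa4 and Apoe) or IVF replicate 4 (Apoa4), whereas Apoc3 and Apom passed on leaving out any 1 library. Apoa1 passed without IVF replicate 5, Apoa5 without IVF replicate 4 and Apoc2 without IVF replicate 3. Scaled by library totals with no TMM factor, the median of all genes moved to -0.31 and all calls split into 765 higher and 3184 lower instead of 1669 and 2056; Apob was then at 0.27 and Apoa4 at 0.36, neither passing.

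In F2 female livers, Apom, Apoc2, Apoa5, Apoc3 and Apoe were higher and Apob lower with an IVF sire, by 1.65-fold to 2.32-fold. These 6 of 10 members passed, against 39.4% of 12525 genes tested (21.6% higher, 17.8% lower). The members' median log2 fold change was 0.79, and that of all genes was -0.01.

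Apoe was at 14020, 17400, 14770, 17390 and 13160 normalised CPM in natural female livers. The 6 IVF livers ran from 23990 to 36550 with a median of 26990. Every IVF liver lay above every natural liver (0.93 ± 0.16, adjusted p = 1.78e-04). Apom was at 118, 249, 155, 205 and 79.7 in naturals. In IVF females it ran from 321 to 405 with a median of 372, again above every natural (1.18 ± 0.23, adjusted p = 5.21e-04). Apoc3 was at 578, 965, 641, 935 and 469 in naturals. Its IVF range was 1169 to 1818 with a median of 1329, with no overlap (0.98 ± 0.19, adjusted p = 6.29e-04).

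Apoa5 was at 758, 1181, 978, 1157 and 619 in natural females. It ran from 1585 to 2543 with a median of 1782 in IVF females. The groups stood apart (1.04 ± 0.19, adjusted p = 4.03e-04). Apob was at 6951, 7717, 8486, 8349 and 9215 in naturals. In IVF females it ran from 3058 to 6828 with a median of 5111, every liver below the lowest natural (-0.72 ± 0.19, adjusted p = 0.00544). These 5 members had separate ranges, as did 29.4% of all genes. Apoc2 was at 0, 2.06, 1.42, 1.28 and 0.59 CPM in naturals and ran from 1.82 to 3.71 with a median of 2.43 in IVF females, overlapping at the top of the naturals (1.21 ± 0.46, adjusted p = 0.0391).

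The other 4 members did not pass in females. Apoa1 was at 11190, 16200, 9815, 11380 and 5852 in naturals and ran from 8456 to 15830 with a median of 11870 in IVF females (0.09 ± 0.22, adjusted p = 0.751). Apoa2 was at 6242, 6492, 8282, 8911 and 6554 in naturals and ran from 6146 to 7860 with a median of 7193 in IVF females (-0.04 ± 0.14, adjusted p = 0.844). Apoc1 was at 3591, 2619, 3815, 3338 and 2775 in naturals and ran from 2606 to 3972 with a median of 3126 in IVF females (-0.01 ± 0.16, adjusted p = 0.961). For these 3 the ranges of the groups overlapped, and Apoa1 and Apoc1 had other values with the GC trend removed, as given below. Apoa4 spread widely, at 261, 321, 906, 891 and 291 in naturals and from 312 to 1513 with a median of 748 in IVF females (0.65 ± 0.53, adjusted p = 0.338). Alb went the other way from most members, from 168300 ± 29220 (n = 5) to 90840 ± 7637 CPM (n = 6; -0.89 ± 0.15, adjusted p = 1.36e-04).

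With the GC trend removed, 2 of 10 members passed in females, against 18.7% of all genes. They were Apom, still higher (0.72 ± 0.20, adjusted p = 0.014), and Apoa1, lower (-0.61 ± 0.22, adjusted p = 0.0454). Apoa5 was then at 0.38 ± 0.18, Apoc3 at 0.33 ± 0.16, Apob at -0.10 ± 0.17 and Apoe at -0.06 ± 0.12, none passing. Apoc1 was at -0.56 ± 0.16 and Alb at -0.57 ± 0.15, both within the fold limit (adjusted p = 0.0165 and 0.00892), while Apoc2 was at 0.57 ± 0.45, Apoa2 at -0.20 ± 0.13 and Apoa4 at -0.13 ± 0.58. Leaving out each library in turn left 5 or 6 members passing, and Apoc2 was the member lost, without natural replicate 1, 4 or 5 or IVF replicate 2, 3 or 6. By library totals with no TMM factor, the median of all genes moved to 0.31, calls split into 3999 higher and 1032 lower instead of 2701 and 2234, and Apob was at -0.40, not passing.

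**Figure D2:**
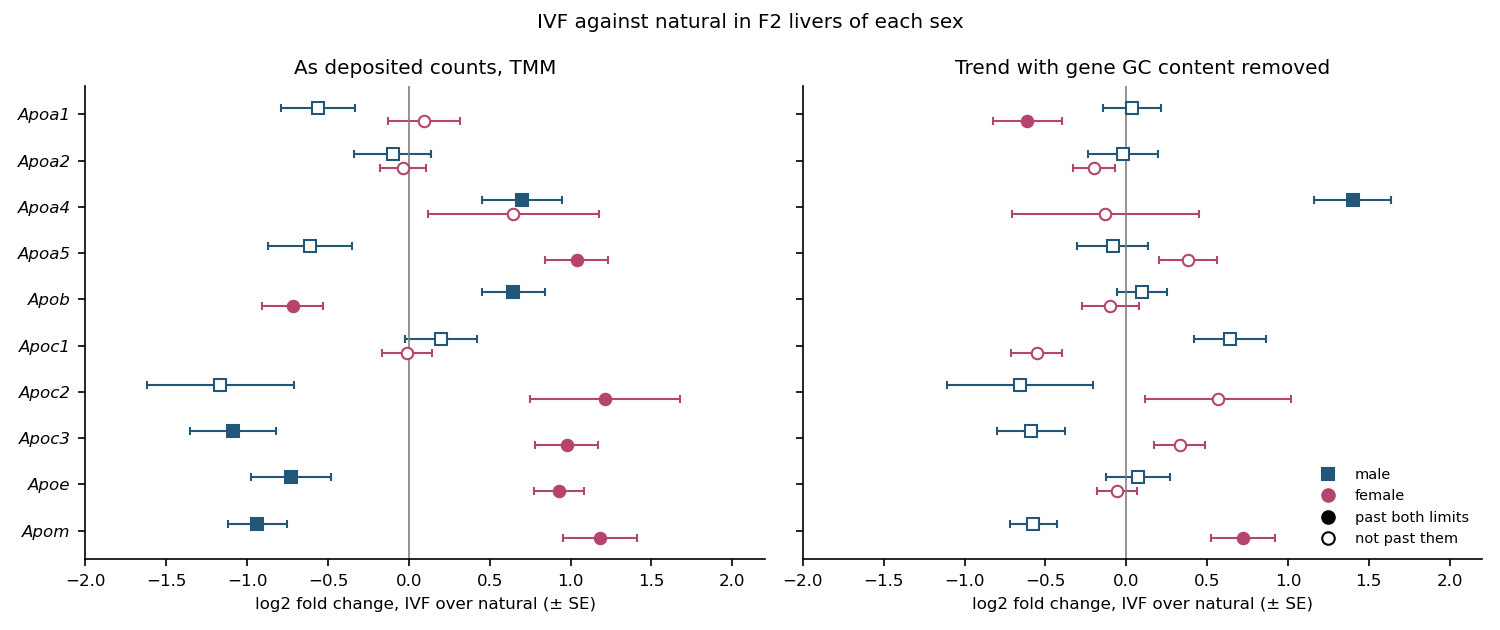
Log2 fold change, IVF over natural (horizontal axis), of each gene (vertical axis) in male (squares) and female (circles) F2 livers, with bars of 1 SE; filled symbols passed both limits. On the left, in the fit of the deposited counts, Apoa5, Apoc2, Apoc3, Apoe and Apom lie below 0 in males and above it in females and Apob the reverse; on the right, with the GC trend removed, Apoe and Apob lie at most 0.10 from 0 in both sexes.

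The IVF effect differed between the sexes for 6 of 10 members, tested as an interaction in a fit of all 21 livers in which 52.9% of 13073 genes passed. On the log2 scale, female effect minus male effect, Apom was at 2.12 ± 0.30 (adjusted p = 1.68e-06), Apoc3 at 2.07 ± 0.35 (adjusted p = 1.5e-05) and Apoe at 1.66 ± 0.30 (adjusted p = 3.88e-05). Apoa5 was at 1.65 ± 0.34 (adjusted p = 1.77e-04), Apoc2 at 2.38 ± 0.67 (adjusted p = 0.004) and Apob, the member with the opposite sign, at -1.35 ± 0.27 (adjusted p = 1.51e-04). Apoa1 was at 0.66 ± 0.33 (adjusted p = 0.0914) and Apoc1 at -0.20 ± 0.27. After removal of the GC trend, 3 members passed, against 36.4% of all genes: Apom at 1.31 ± 0.26 (adjusted p = 2.45e-04), Apoc3 at 0.93 ± 0.27 (adjusted p = 0.00822) and Apoc1 at -1.18 ± 0.27 (adjusted p = 0.00127). Apoe was then at -0.11 and Apob at -0.20. These values share their libraries with the 2 comparisons above and are no separate observation of them.

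Natural livers themselves differed by sex in 6 members, when 42.2% of all genes did. Apoa4 was higher in females by a log2 value of 2.12 ± 0.47 (adjusted p = 0.00114). Apob was higher in females by 0.70 ± 0.20 (adjusted p = 0.00464). Lower in females were Apom at -0.86 ± 0.22 (adjusted p = 0.00182), Apoe at -0.70 ± 0.22 (adjusted p = 0.00861), Apoc2 at -1.28 ± 0.47 (adjusted p = 0.0244) and Apoc3 at -0.68 ± 0.25 (adjusted p = 0.0249). With the GC trend removed, Apoa4 at 2.97 ± 0.53 (adjusted p = 3.24e-04) and Apoc1 at 0.65 ± 0.20 (adjusted p = 0.0129) passed, against 26.4% of all genes. Apoc2 lost its call without male natural replicate 3 or female natural replicate 5, and Apoc3 without male natural replicate 5 or female natural replicate 1, 3 or 5. Scaled by library totals with no TMM factor, the median of all genes moved to -0.37 and Apob to 0.32, not passing. The sexes were in separate tables, and a difference in how the tables were made cannot be told apart from sex.

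**Figure D3:**
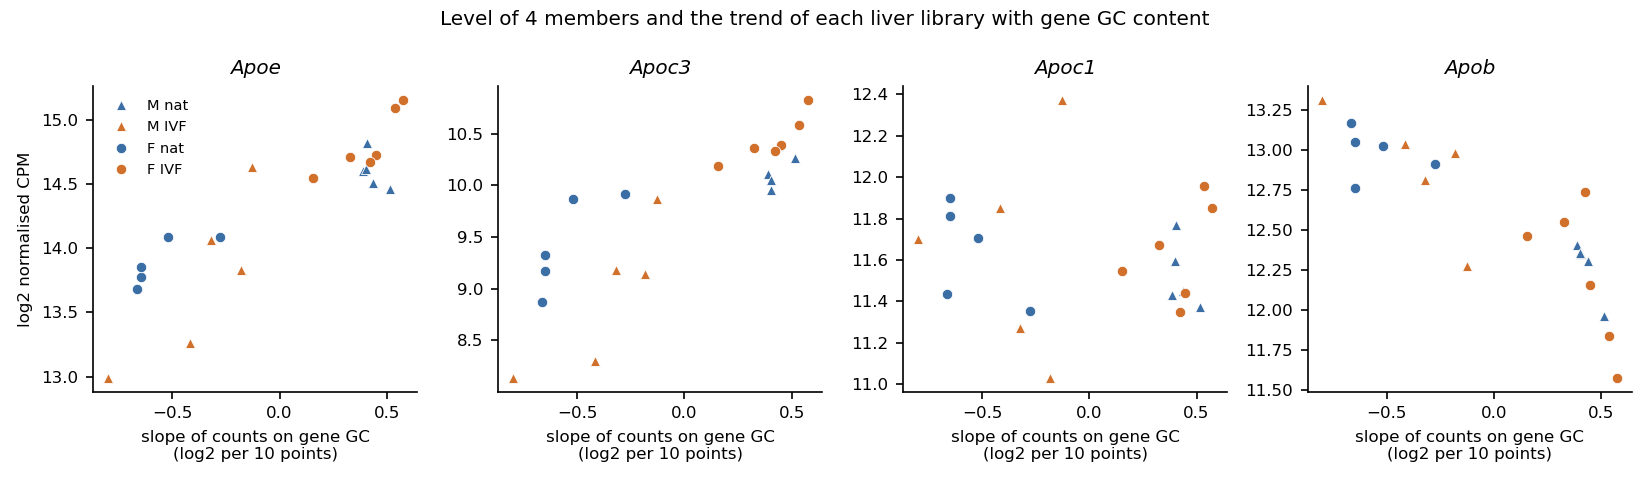
Log2 normalised CPM of Apoe, Apoc3, Apoc1 and Apob (vertical axes) against the slope of each liver library's log2 counts on gene GC content per 10 percentage points (horizontal axes). Triangles are males, circles females, blue natural and orange IVF, 21 libraries in each panel. Libraries of positive slope, the male naturals and female IVF, all hold more Apoc3 than those of negative slope, and, apart from the male IVF library of slope -0.13, more Apoe and less Apob.

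The other genes of lipoprotein metabolism were taken from lists chosen with earlier results of these data known, and their changes, on the log2 scale with standard errors of 0.116 to 0.356 for the genes named, are read beside the 31.1% (male) and 39.4% (female) of all genes that passed. Of 9 tested genes among other apolipoproteins and their plasma partners, 2 were higher and 2 lower in IVF males (median -0.13), and 4 higher and 2 lower in IVF females (median 0.48). Apoc4, next to Apoc2 on chromosome 7, fell by 1.02 in males (adjusted p = 0.00211) and rose by 1.40 in females (adjusted p = 1.33e-05). Pltp, which moves phospholipid between lipoproteins, fell by 1.84 in males (adjusted p = 3.16e-04). Lcat, which esterifies cholesterol on HDL, was at -0.35 in males (adjusted p = 0.225) and rose by 0.77 in females (adjusted p = 5.00e-04). Apoo and Apool, which despite their names are components of a mitochondrial inner-membrane complex, rose by 1.19 and 0.70 in males (adjusted p = 0.0047 and 0.0267) and fell by 1.12 and 0.76 in females (adjusted p = 0.00475 and 0.00527). With the GC trend removed, 3 of these 9 genes passed in males, Pltp at -1.24 and Apoo at 0.78 among them, and 1 in females. Apoc4 was then at -0.30 in males and 0.55 in females, Lcat at 0.11 and 0.18, Apool at 0.09 and 0.07, and Apoo in females at -0.59.

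Of 14 genes of particle assembly and secretion, 3 were higher and 2 lower in IVF males (median 0.01) and 2 higher and 3 lower in IVF females (median -0.26). Mttp, which loads lipid onto Apob, did not pass in males at 0.26 (adjusted p = 0.247) or females at -0.25 (adjusted p = 0.178). Sar1b, the GTPase of the transport vesicles that carry these particles out of the endoplasmic reticulum, rose by 1.02 in males (adjusted p = 5.05e-04) and fell by 1.23 in females (adjusted p = 3.37e-05). A1cf, the partner of the Apob mRNA editing enzyme, rose by 0.66 in males (adjusted p = 0.0231) and fell by 1.02 in females (adjusted p = 4.7e-05), while the enzyme gene Apobec1 was at 0.81 in males (adjusted p = 0.0896) and -0.26 in females (adjusted p = 0.316). Sort1, a sorting receptor that binds Apob, fell by 1.29 in males (adjusted p = 7.71e-05). Fitm2, a lipid droplet gene, fell by 1.34 in males (adjusted p = 0.00205) and rose by 1.02 in females (adjusted p = 9.98e-04). Surf4, an export receptor for lipoproteins, rose by 0.70 in females (adjusted p = 2.74e-04). Sort1 (-1.30) and Fitm2 (-1.37) in males and Fitm2 (1.01) in females were those that passed with the GC trend removed. Sar1b was then at 0.46 in males and -0.52 in females, A1cf at 0.19 and -0.48, Mttp at -0.13 and 0.22, Apobec1 at 0.45 and 0.13, and Surf4 in females at 0.19.

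Of 12 tested receptor and uptake genes, 7 were lower and 0 higher in IVF males (median -0.81), and 6 higher and 0 lower in IVF females (median 0.64). Sdc1, a heparan sulfate receptor for remnants, fell by 1.2 in males (adjusted p = 2.53e-04) and rose by 1.32 in females (adjusted p = 0.0001). With the GC trend removed, 3 of 12 passed in males, all lower, and 3 in females, 2 higher and 1 lower, with Sdc1 at -0.76 and 0.77 among them.

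Of 12 lipases and lipase regulators, 1 was higher and 1 lower in males (median 0.03), and 4 higher and 2 lower in females (median 0.30). Ces1d, a liver lipid hydrolase, fell by 0.78 in males (adjusted p = 0.00476). Lpl, lipoprotein lipase itself, fell by 1.74 in females (adjusted p = 2.05e-04), where its maturation factor Lmf1 rose by 0.85 (adjusted p = 4.61e-04) and Pnpla2, the triglyceride lipase of lipid droplets, by 0.64 (adjusted p = 0.00386). Ces1d (-0.97) in males and Lpl (-1.10) in females still passed with the GC trend removed, and Lmf1 (-0.03) and Pnpla2 (-0.12) did not.

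Of 22 tested transcriptional regulators, 2 were higher and 5 lower in males (median -0.42), and 8 higher and 3 lower in females (median 0.36). Hnf4a, a nuclear receptor that drives many apolipoprotein genes in hepatocytes, did not pass in males at -0.18 (adjusted p = 0.399) or in females at 0.19 (adjusted p = 0.245). Creb3l3, a liver factor acting on Apoa4, Apoa5 and Apoc2, fell by 0.85 in males (adjusted p = 0.0016) and rose by 1.27 in females (adjusted p = 5.18e-05), and was at -0.28 and 0.58 with the GC trend removed, passing in neither. Foxo1, a forkhead factor that drives Apoc3, rose by 0.89 in males (adjusted p = 0.00293). Whether any of these factors acts on the members in these livers was not tested. Cebpa fell by 1.90 in males (adjusted p = 1.19e-04) and rose by 2.21 in females (adjusted p = 1.33e-05), and Ppargc1a rose by 1.71 in males (adjusted p = 3.70e-04) and fell by 1.25 in females (adjusted p = 3.64e-05). Srebf2, the driver of cholesterol synthesis, fell by 1.51 in males (adjusted p = 6.81e-05). In females the sterol sensor gene Nr1h2 rose by 1.80 (adjusted p = 9.28e-06) and the clock gene Rora fell by 0.74 (adjusted p = 1.04e-04). Cebpa has 62.6% GC and Ppargc1a 41.7%; with the GC trend removed Cebpa was at -0.91 and 1.00, passing in both sexes, and Ppargc1a at 1.10 and -0.48, passing in males. Foxo1 (0.68) and Srebf2 (-0.83) in males and Nr1h2 (0.74) in females passed as well, Rora (0.05) did not, and Hnf4a was at 0.11 and -0.19. In all, 4 of the 22 passed in males and 6 in females after that removal.

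Within groups, the members did not vary as 1 unit. Correlations were taken over the 21 livers, each as its deviation from its sex and conception group mean. Log2 CPM of Apoc3 and Apoe had a Pearson correlation of 0.89, and Apoe and Apoa2 of 0.85. Apoa2 and Apoc3 stood at 0.74 and Apoa1 and Apoc3 at 0.72, but Apob and Apoe at -0.70. All points share their library's depth and GC trend, so these are descriptions. Of 3286 genes compared, those most like Apoa1 were Serpina1a (0.83), Blvrb (0.83) and Ahsg (0.82). Hykk (0.92), Trappc8 (0.92) and Tm9sf3 (0.91) were most like Apob, and Gjb1 (0.92), Coasy (0.92) and Ergic3 (0.92) most like Apoe. The 3 genes like Apob had 40.0% to 43.8% GC, beside 43.5% for Apob, and the 3 like Apoe 56.6% to 57.0%, beside 59.5% for Apoe.

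In the gonads the members were far scarcer, but not equally so. Together they made up 0.00817% to 0.0351% of counts in testes and 0.0968% to 0.144% in ovaries. Levels there are CPM by library totals. Read as a percent of the mean over the 21 F2 livers, Apoe stood at 0.622% in E18.5 testes, 0.491% and 0.506% in F1 testes at 12 and 39 weeks, 0.412% in F2 testes and 4.09% in ovaries. The 18 hepatocyte markers, read the same way, reached at most 0.25% in E18.5 testes (Vtn), 0.217% (Cps1), 0.14% (Itih3) and 0.128% (Ambp) in the older testes in the same order, and 0.216% in ovaries (Itih3), so Apoe exceeded all of them in every gonad. Apoc1 exceeded all of them in the 3 groups of adult testes at 0.447%, 0.477% and 0.372%, but not in E18.5 testes at 0.219%. Apob did so at E18.5 at 0.282%, Apom at 0.463%, and in ovaries Apoa4 did so at 32.3%, Apoa1 at 0.338% and Apoc3 at 0.273%. The ovary values of Apoa1 and Apoc3 no longer exceeded every marker when natural male livers or medians were the base, leaving Apoa4 and Apoe. Apom exceeded them also in testes at 39 weeks (0.17%) and in F2 testes (0.149%), though not with those bases. Apoc2 read 2.08% to 33.9% in testes, on 0 to 34 counts a library and with the shared exons named above. Adult testes held few counts of the other members: Apoc3 had 0 counts in all 10 libraries at 12 weeks, which allows up to 3 counts in each. Gonad libraries held 2904727 to 49192804 counts and showed their own cells' markers, with Sertoli cell markers at 115 to 2410 CPM in testes and oocyte markers at 153 to 280 CPM in ovaries.

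**Figure D4:**
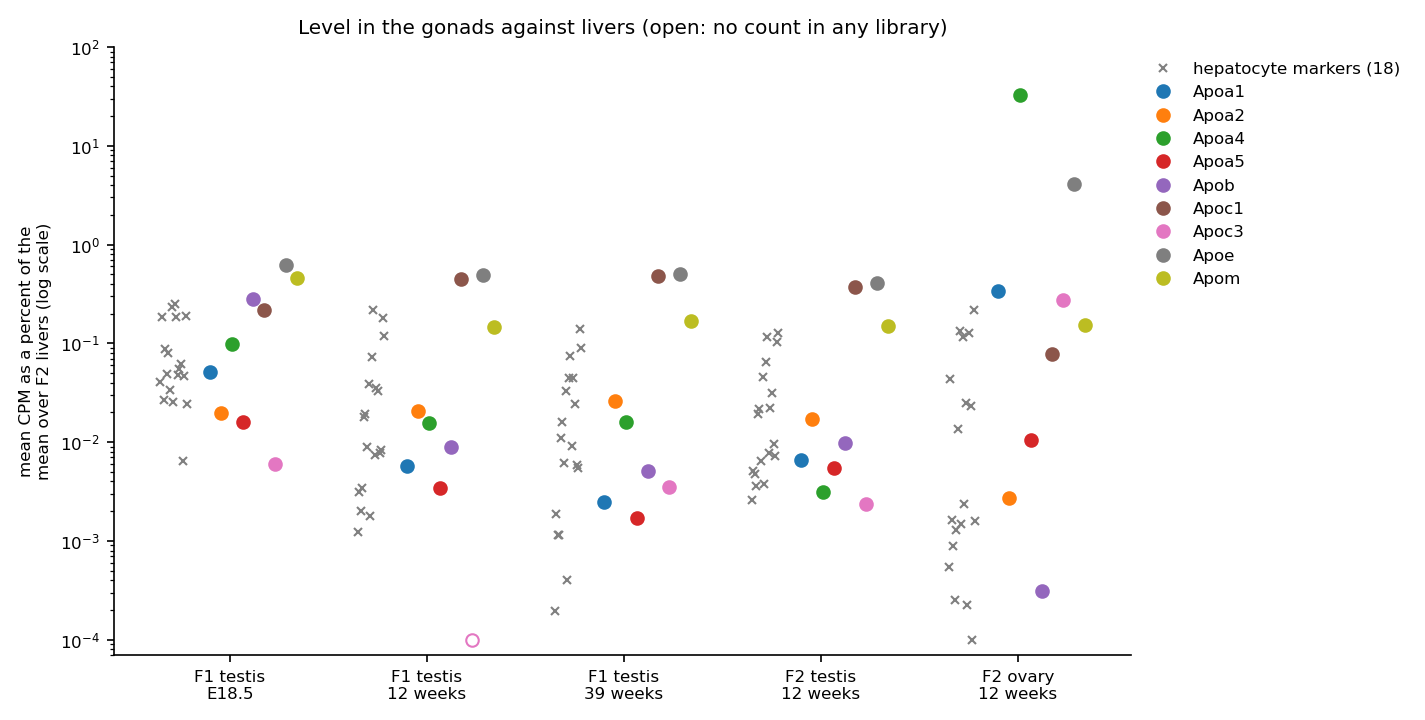
Mean CPM in each gonad as a percent of the mean over 21 F2 livers (vertical axis, log scale) for 9 of the genes (coloured circles; the open circle, Apoc3 at 12 weeks, had 0 counts) and 18 hepatocyte markers (grey crosses), by tissue and age; Apoc2 is left out for its shared exons. Apoe lies above every marker in all 5 tissues, and Apoa4 in ovary, at 32.3%, is the highest point.

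Fetal testes at E18.5 carried Apob, Apoe and Apoc1. Apob was at 38.6, 8.83, 14.7 and 12.4 CPM in naturals and from 13.6 to 21.8 with a median of 15.9 in IVF testes, and did not pass (-0.15 ± 0.35, adjusted p = 0.868), the value of 38.6 being that of the library with hepatocyte transcripts described below. Apoe was at 238, 159, 130 and 154 in naturals and from 109 to 126 with a median of 121 in IVF testes. Every IVF testis lay below every natural testis, with a log2 fold change of -0.50 ± 0.14 that did not pass over all genes (adjusted p = 0.0883). Apoc1 was likewise lower without overlap, at 10.1, 9.45, 8.26 and 8.61 in naturals and 4.51 to 6.62 with a median of 5.55 in IVF testes (-0.69 ± 0.20, adjusted p = 0.0859). Separate ranges were found for 6.1% of all genes here. No member passed, against 0.221% of 15406 genes (edgeR, with 5 members tested, 3 of them with an unadjusted p under 0.05). DESeq2 called Apoc1, and leaving out natural replicate 3 brought Apoe past both limits. On leaving out each library in turn, the log2 fold change of Apoe ran from -0.62 to -0.27. Its value of 238 CPM was also that of the library with hepatocyte transcripts. Natural libraries were shallower, with 2904727 to 4869139 counts against 8500054 to 15745480, and had higher GC slopes (0.05 to 0.16 against -0.09 to -0.03; p = 0.00952 by exact permutation, adjusted 0.0222). After removal of the GC trend Apoe was at -0.37 ± 0.15 and Apoc1 at -0.60 ± 0.20, neither passing. Sertoli cell markers summed to 1800 to 2410 CPM in naturals and 1330 to 1810 in IVF testes, macrophage markers to 62.0 to 81.4 and 54.4 to 71.6, and Leydig cell markers to 899 to 3120 and 1460 to 4160. The part of depth and of these markers in the differences was not tested.

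The library of natural replicate 1 at E18.5 held hepatocyte transcripts. Its 18 hepatocyte markers summed to 681 CPM, against 18.8 to 40.4 in the other 9 libraries, and its Alb was at 360 CPM. Apoa1 was there at 49.2 CPM and at 0 to 2.95 in the others, and the ratio of Apoa1 to Alb, 0.137, lay within the 0.0425 to 0.37 of the 21 livers. Its Apob to Alb ratio of 0.107 (livers 0.0366 to 0.139) and Apoc1 to Alb ratio of 0.0281 (livers 0.0124 to 0.0655) also lay within, Apoa2 to Alb at 0.03 just below (livers 0.0308 to 0.164), Apoc3 to Alb at 0.00128 below (livers 0.00318 to 0.0304) and Apoe to Alb at 0.661 above (livers 0.0772 to 0.559). Apoa1 at E18.5 had a log2 fold change of -3.90 ± 1.34 (adjusted p = 0.179), and without that library of -0.59 ± 1.06. The livers compared are adult ones, and fetal liver was not analysed here.

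In testes at 12 weeks, Apoe was at 99.1, 106, 121, 88.8 and 112 CPM in naturals and 104, 104, 114, 111 and 144 in IVF F1 males, and did not pass (0.15 ± 0.09, adjusted p = 0.536). At 39 weeks it was at 98.4, 104, 101 and 87.4 in naturals and from 72.9 to 200 with a median of 116 in IVF F1 males (0.30 ± 0.23, adjusted p = 0.687). Apoc1 at that age was at 7.52, 7.75, 9.94 and 11.02 in naturals and from 5.05 to 42.2 with a median of 16.1 in IVF F1 males (1.05 ± 0.48, adjusted p = 0.48). The same 3 IVF testes, replicates 1, 5 and 3, were the highest in both genes, at 200, 151 and 140 CPM of Apoe and 42.2, 27.5 and 20.9 of Apoc1. Their macrophage markers summed to 78.5, 78.4 and 78.1 CPM, against 54.5 to 79.9 in the other 7 libraries, and their Leydig cell markers to 807, 923 and 695 against 438 to 917.

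In F2 testes Apoe was at 89.8, 79.6, 91.1, 79.6 and 74.5 in naturals and from 79.0 to 135 with a median of 88.7 with an IVF sire (0.28 ± 0.13, adjusted p = 0.37). Apoc1 was at 9.58, 8.78, 7.13, 9.5 and 12.7 in naturals and from 6.63 to 21.3 with a median of 11.9 with an IVF sire (0.53 ± 0.28, adjusted p = 0.449). IVF replicates 5, 6 and 2 were the highest in both, at 135, 125 and 97.6 CPM of Apoe and 21.3, 17.5 and 18.2 of Apoc1, with macrophage markers at 63.9, 67.8 and 66.3 CPM against 61.3 to 66.6 in the other 9. Natural replicate 5, by contrast, had the most Apoc1 of the naturals and the least Apoe of all 12. At 12 weeks in F1 the 3 libraries with most Apoc1 (IVF replicates 1 and 4 and natural replicate 1, at 18.2, 17.8 and 17.5 CPM) held 104, 111 and 99.1 of Apoe, below the 144 of IVF replicate 5. Apob was higher in naturals (-1.63 ± 0.59, adjusted p = 0.21), where replicates 1 and 2 held 1.76 and 2.03 CPM and the other 10 libraries at most 0.67. Those 2 libraries also held the Alb of these testes, 14.1 and 15.7 CPM against at most 0.08 elsewhere, with Apob to Alb at 0.124 and 0.129 and Apoa1 to Alb at 0.306 and 0.204, within the liver ranges, but with Apoa2 to Alb at 0.228 and 0.225, Apoc1 to Alb at 0.679 and 0.559 and Apoe to Alb at 6.36 and 5.06, above theirs. These 2 libraries were also among the 3 closest pairs of the series, differing by a chi-square of 1.85 per degree of freedom on halved counts. IVF replicates 3 and 4 of these testes differed by 1.42 and natural replicates 1 and 2 at 39 weeks by 1.54, all above sampling noise, and summing each pair into 1 sample left 0 members passing. In adult testes no member passed in any comparison, against 0.199% of genes at 12 weeks (4 members tested), 0.00996% at 39 weeks (4) and 0.914% in F2 testes (5). DESeq2 likewise called 0 members, and the member with an unadjusted edgeR p under 0.05 was Apob in F2 testes.

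**Figure D5:**
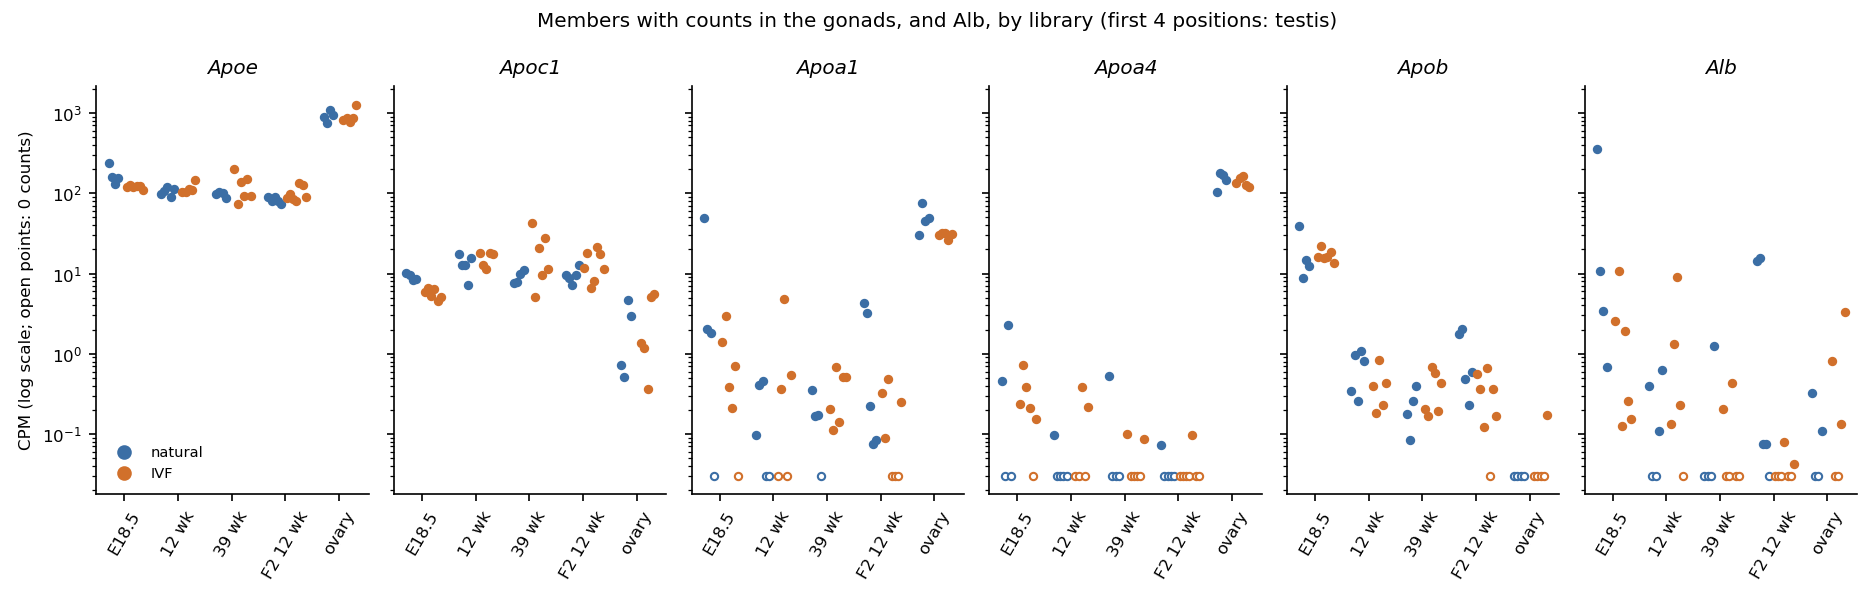
CPM (vertical axes, log scale; open points along the bottom had 0 counts) of 5 of the genes and of Alb in each of the 51 gonad libraries, by tissue and age (horizontal axes; blue natural, orange IVF). Apoe and Apoc1 are found in every library, Apoa1 and Apoa4 stand at 26.3 to 75.0 and 104 to 179 CPM in all 9 ovaries, where Alb is at most 3.31, and single testis libraries with Apoa1 above 3 CPM also hold Alb.

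In ovaries at 12 weeks, Apoe, Apoa4 and Apoa1 were the members with substantial counts. Per kilobase of exon (mean ± SD, natural, n = 4) Apoe was at 431 ± 64.0, Apoa4 at 82.5 ± 18.6 and Apoa1 at 40.4 ± 15.2, and Apoc1 followed at 2.99 ± 2.67, with Apob at 0 counts in all 4. Apoa4 was at 104, 179, 170 and 146 CPM in naturals and 136, 154, 163, 128 and 121 with an IVF sire (-0.03 ± 0.15, adjusted p = 0.959), on 1391 to 5105 counts a library. Male livers held 107 to 341 and female livers 261 to 1513 normalised CPM, so that the ovaries lay below every female liver and overlapped the male ones. Apoa1 was at 29.9, 75.0, 45.0 and 49.9 in naturals and 29.9, 31.9, 32.0, 26.3 and 30.8 with an IVF sire. Its log2 fold change of -0.66 ± 0.21 did not pass (adjusted p = 0.403). Between these groups, oocyte markers summed to 248 to 280 CPM in naturals and 153 to 240 with an IVF sire, granulosa, theca and luteal markers to 11700 to 18400 and 16400 to 24700, and macrophage markers to 163 to 248 and 144 to 182. Their part in the Apoa1 values was not tested. Apoe was at 891, 757, 1087 and 950 in naturals and 827, 857, 770, 861 and 1276 with an IVF sire (0.05 ± 0.16, adjusted p = 0.931), with IVF replicate 5 the highest.

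Hepatocyte markers were scarce in these ovaries. Alb was at 0 to 3.31 CPM and the 18 hepatocyte markers summed to 8.81 to 27.6 CPM. In the 3 ovaries with at least 10 Alb counts the ratio of Apoa1 to Alb was 9.32 to 91.9 and that of Apoa4 to Alb 36.6 to 319, against at most 0.37 and 0.0163 in livers. The intestinal markers, the other main source of Apoa4, summed to 4.59 to 8.79 CPM over 6 genes, and Apob, which both liver and intestine make, had 0 counts in 8 of 9 ovaries. The cells that hold the members' transcripts were not resolved here. None of the 5 members tested passed between natural and IVF ovaries, nor did any of 16502 genes (0% by edgeR, with 1757 genes and 1 member, Apoa1, at an unadjusted p under 0.05; DESeq2 called 88 genes and 0 members).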

How the data were processed

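RNA from mouse testes, ovaries and livers was made into stranded poly(A) libraries and sequenced by the authors, who trimmed reads (Trimmomatic 0.32), aligned them to mm10 (STAR 2.3.0e), counted them per gene (featureCounts 1.5.0) and tested with DESeq2, per the study's methods and the submitters' processing notes. The deposited values are raw counts per gene symbol in 7 tables, and 0 columns of samples were left unused. Annotation release and strand setting are not given in the sources used here. Of counts from 2 to 21, 67.1% to 95.7% per library were even, so mates of a pair were counted separately. Library totals and base composition are given in the report. Each library was treated as 1 sample. The labels name neither litters nor sires, so p-values measure the spread between these libraries. The paper's methods say that the F1 testes came from different litters. F2 animals, per the paper, came from consecutive litters of the same breeding pairs, so F2 libraries of a group can share a sire. Conception differed between the sires, and p-values for F2 tissues do not measure the spread between sires.

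Counts were fitted with edgeR 4.0.16 (R 4.3.3; filterByExpr, TMM, quasi-likelihood test) per tissue, age and sex over all genes, with Benjamini-Hochberg adjustment; a gene passed when 2 limits were met, 1.5-fold and an adjusted p of 0.05. All 21 livers were fitted together for sex. The GC trend was removed as a spline of 5 degrees of freedom per library. Alternatives were DESeq2 1.42.0, other filters and scalings, a replicate block and leaving out libraries. Library totals and GC slopes were compared by exact permutation tests (scipy 1.17.1, Python 3.11.15). Ratios to Alb needed 10 Alb counts. A count of 0 was read as allowing up to 3 counts, for counting error only. Likeness to a member was a Pearson correlation over livers of genes with a mean log2 CPM of at least 5. All 10 members are described, the companions named are the 2 called genes of each list with the lowest adjusted p in each direction and sex, plus Alb, Mttp, Lcat, Creb3l3, Hnf4a and Apobec1 whatever their value, and a few genes under this rule are not reported here, and members and lists were chosen with earlier results of these data known. Apoc2 is left out of 1 plot. The fit was tested on simulated data: of genes changed by a log2 fold of 1, 60.7% were recovered in male livers (11973 genes) and 52.4% in female livers (12525 genes). In the fit of all livers, tested on the sex difference in the IVF effect, 26.5% were recovered (13073 genes). The simulated libraries carried no GC trend, unlike the livers, so recovery in the presence of that trend was not tested.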

Additional observations from a re-analysis of the deposited data

Results flagged for a closer look

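Of 81 groups of 4 to 10 libraries with a member's mean of at least 1 CPM, 8 had 1 library far from the others by Dixon's ratio, the gap to its nearest neighbour divided by the group's range, and chance alone flags about 1 in 20 groups. At E18.5 natural replicate 1 stood apart in Apoa1 (ratio 0.958, 49.2 against 2.05 CPM in the next library) and in Apoa2 (0.957, 10.8 against 0.69), the library that also held Alb at 360 CPM. In testes at 12 weeks, IVF replicate 3 stood apart in Apoa1 (0.887, 4.78 against 0.54 CPM), with Alb at 9.04 CPM and an Apoa1 to Alb ratio of 0.529, natural replicate 3 in Apoa2 (0.739, 2.54 against 1.24) and IVF replicate 5 in Apoe (0.743, 144 against 114). In male livers, natural replicate 1 was low in Apob (0.740, 4001 against 5065 normalised CPM) and IVF replicate 4 high in Apoa5 (0.775, 1574 against 727). In ovaries IVF replicate 5 was high in Apoe (0.821, 1276 against 861 CPM).

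The IVF effect differed between male and female livers, tested as an interaction, in Apom (2.12 on the log2 scale, female minus male), Apoc3 (2.07), Apoc2 (2.38), Apoe (1.66), Apoa5 (1.65) and Apob (-1.35). These are the differences in which GC trend of the libraries and conception cannot be told apart.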

How the results depend on the processing

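Of the recomputed main results, such as the number of members passing, 291 stayed equal or close to the first value and 16 moved. Of the other recomputed values, among them the fold changes of single members, 1024 stayed the same and 36 reversed. A further 59 were weaker, 26 stronger and 57 moved. In male livers, 5 members passed, against 8 with DESeq2's Wald test, 1 with the GC trend removed, 3 without the 2 IVF libraries of lowest total, and 3 to 6 on leaving out 1 library. Removing the GC trend also left 2 members in female livers (6 before), 3 in the test of the sex difference (6 before) and 2 between natural livers of the sexes (6 before). The trend also separates these groups, so its part cannot be told apart from that of conception or sex. At E18.5, DESeq2 called 1 member (Apoc1, at -0.70) and leaving out 1 library 0 to 1. Members above every hepatocyte marker in ovary fell from 4 to 2 against natural male livers and to 2 with medians, and in IVF male livers 6 of 10 members held their rank with the longest transcript as length. The cause of these moves was not tested.

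Directions turned in values near 0 (Apoc1, Apoa2 and female Apoa1) and, on removal of the GC trend, also in larger ones. In males these were Apoc1 (-0.012 with at least 10 counts in every library, -0.16 with no TMM, -0.019 to 0.33 on leaving out 1 library), Apoa2 (0.19 without the 2 IVF libraries of lowest total, -0.40 to 0.013 on leaving out 1), and, with the GC trend removed, Apoa1 (0.036) and Apoe (0.073). In females they were Apoa2 (0.031 with no filter, 0.021 with at least 10 counts, 0.29 with no TMM, -0.078 to 0.065 on leaving out 1), Apoc1 (0.062, 0.051 and 0.32 in the same order, 0.15 without the 2 natural libraries of lowest total, -0.08 to 0.074 on leaving out 1), Apoa1 (-0.61 with the GC trend and -0.075 with the length trend removed, -0.046 to 0.30 on leaving out 1), and, with the GC trend removed, Apoa4 (-0.13) and Apoe (-0.058). The sex difference of Apoc1 was 0.14 with at least 10 counts, 0.48 with no TMM and -0.32 to 0.03 on leaving out 1, and with the GC trend removed that of Apoa1 was -0.63 and of Apoe -0.11. Between natural livers Apoe turned to 0.32 with the GC trend removed, as did Apoa1 (-0.28 to 0.45) and Apoa5 (-0.41 to 0.25), which passed in neither fit.

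Counts over all genes moved by more than 1.5 times in these cases. Male livers had 3725 calls, 1490 with at least 10 counts, 2129 with the GC trend removed and 1820 after thinning to the smallest library, and female livers 4935 and 2336 with the GC trend removed. The sex difference had 6913, 2675 and 3531 (at least 10 counts, thinned) and natural livers 5511, 1854, 3445 and 2674 (at least 10 counts, GC, thinned). With no TMM the calls of the sex difference split into 5268 higher and 1687 lower instead of 3622 and 3291, and those between natural livers into 1185 and 4489 instead of 2558 and 2953. At E18.5 there were 34, 133 with DESeq2, 181 with no fold limit, 1 with the GC trend removed and 3 to 115 on leaving out 1 library. At 12 weeks there were 40, 70, 150 and 6 to 90 (DESeq2, no fold limit, leaving out 1), at 39 weeks 2, 92 with DESeq2, 7 with no filter, 1 with the pair summed and 1 to 11, in F2 testes 196, 336, 345, 92 with the pairs summed and 111 to 224, and in ovaries 0, 88 with DESeq2 and 0 to 3.

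Replicate numbers did not pair the samples: 3 of 32 same-numbered pairs correlated over 0.1 (range -0.23 to 0.30). With the number as a replicate block, 6 members passed in male livers (Apoa1 and Apoa5 gained, Apoa4 lost at 0.61), 7 in female livers (Apoa4 gained), 6 for the sex difference, 6 between natural livers and 0 in each gonad, with 3250, 4282, 6522 and 5287 genes called in the liver fits and 2, 8, 4, 144 and 0 in the gonads.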
